A study of Sus scrofa with 8 samples.

Results

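The simple epithelial keratins are the intermediate filament genes KRT7, KRT8, KRT18 and KRT19, examined here in porcine induced pluripotent stem cells (piPSCs) with and without overexpressed IRF-1. These 4 genes were chosen on the counts of the same contrast that is described below. Their levels, fold changes and ratio are therefore a description and were not tested. Members were found by symbol in the pig Ensembl gene names, and 3 of the 4 genes (KRT7, KRT8 and KRT18) matched an identifier among the 24358 in the count table. KRT19 matched none by symbol and is treated apart below. Of the 3 matched genes, KRT8 and KRT18 passed the filter on low counts and KRT7 did not.

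Keratins are the intermediate filament proteins of epithelial cells. A filament is built from heterodimers of a type II keratin, such as KRT7 or KRT8, and a type I keratin, such as KRT18 or KRT19, and an unpaired keratin protein is unstable. KRT8 and KRT18 are the first keratins made in the embryo, where they mark the trophectoderm, and they persist in single-layered epithelia such as liver and gut. KRT7 and KRT19 join them in ducts and in trophoblast.

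The study asked how IRF-1, a transcription factor of the interferon response, affects pluripotency in piPSCs, and used RNA-seq among other assays. The cells were DOX-hLIF-2i piPSCs, reprogrammed from porcine embryonic fibroblasts carrying an OCT4-tdTomato reporter with doxycycline-inducible lentiviruses (FUW-OSKM and FUW-M2rtTA), and they depend on doxycycline and grow on feeder cells. The overexpressing group (replicates 1 and 3) carried PB-CAG-IRF1-Flag, in which the CAG promoter drives Flag-tagged IRF-1, and the control group (replicates 6 and 8) carried PB-CAG-Flag. Both groups went through puromycin selection, and feeder cells were depleted by a short plating step before poly(A) RNA was taken. The sample labels give domestic pig as the breed, adult as the developmental stage and overexpression of IRF-1 as the genotype of all 4 libraries, so the division into groups follows the study's own assignment of its numbered libraries and not the genotype label. The labels name LCDMV as the culture system, whereas the study's methods describe a medium with LIF, 2 inhibitors and doxycycline.

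The counts of IRF1 (ENSSSCG00000014277, chromosome 2) were examined first, as a check of this division. IRF1 had 8206 and 5485 counts in overexpressing replicates 1 and 3, and 55 and 56 counts in control replicates 6 and 8. The overexpressing libraries were thus far above both controls. The reads counted on genes numbered 24923319 and 20858333 under overexpression and 15925429 and 17097669 in the controls. CPM is the count scaled to a common library size. By library totals alone, a single count was worth between 0.0401 and 0.0628 CPM. The levels in CPM given below also carry TMM scaling (trimmed mean of M values), so they differ slightly from that scale. The mitochondrial share of counts was 8.62% and 7.57% in overexpressing replicates 1 and 3 and 6.29% and 6.68% in control replicates 6 and 8, so the groups did not overlap. With library totals taken without mitochondrial genes and the members, the log2 fold changes of KRT8 and KRT18 given below were -3.94 and -5.77. RNA quality as such was not tested. The label of pluripotent cells was checked against its markers. DNMT3B, a DNA methyltransferase of early embryonic cells, stood at 845 ± 214 CPM in the controls and 1020 ± 20.6 CPM under overexpression (SD, n = 2 per group), whereas NANOG had at most 11 counts in any library and PRDM14 and KLF17 had 0 in all 4. ESRRB, a nuclear receptor of the naive state, had 502 and 402 counts in the controls and 31 and 37 under overexpression. The RNA-binding protein gene LIN28A stood at 444 CPM on average in the controls and 175 CPM under overexpression. NODAL went the other way, at 15.0 and 16.9 CPM under overexpression and 4.86 and 10.3 CPM in the controls. The markers of this list thus stood at very different levels. By the edgeR call used below, 2 of them (ESRRB and LIN28A) were lower under overexpression and 0 were higher. NODAL did not pass the threshold of that call. POU5F1, SOX2 and SALL4 were not analysed here.

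The control libraries differed from each other in the immediate early genes, which were singled out after their values had been seen. FOS, a subunit of the AP-1 transcription factor, had 5777 counts in control replicate 6 and 33 in control replicate 8, against 658 and 1162 in the overexpressing libraries. Its partner JUN had 3693 and 174 counts in the controls, and FOSB had 256 and 0. The overexpressing libraries lay between the controls for all 3 genes. The part of this difference in the keratin levels was not tested, and the log2 fold changes of KRT8 and KRT18 and the summed level of the matched members are also given without each control.

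KRT8 (ENSSSCG00000000252) is on chromosome 5 of the assembly Sscrofa11.1, minus strand, from 18170354 to 18180215, and its identifier covers 4005 exon bases. It had 187722 counts in control replicate 6 and 130983 in control replicate 8. In the overexpressing libraries it had 6213 counts in replicate 1 and 21095 in replicate 3. The groups did not overlap, and the lower of the controls stood 7.38-fold above the higher of the overexpressing libraries after scaling to CPM. Among all identifiers, KRT8 held rank 2 and rank 4 by counts in the controls, and rank 602 and rank 117 in overexpressing replicates 1 and 3. In CPM with TMM scaling (trimmed mean of M values), its mean was 9746 in the controls (SD 3199, n = 2) and 632 under overexpression (SD 540, n = 2). The fitted log2 fold change was -3.95 (standard error 0.607). Leaving out overexpressing replicate 3 gave -5.29 and leaving out overexpressing replicate 1 gave -3.26. Leaving out control replicate 6 gave -3.57 and leaving out control replicate 8 gave -4.24.

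KRT18 (ENSSSCG00000000253), the type I partner of KRT8, lies 37360 bases further along, on the plus strand from 18217575 to 18222833, with 2949 exon bases. Its counts were 55405 and 35599 in control replicates 6 and 8, and 343 and 1843 in overexpressing replicates 1 and 3. The libraries stood in the same order as for KRT8, and the smallest gap between the groups was 23.0-fold in CPM. Its mean was 2789 CPM in the controls (SD 1068, n = 2) and 51.2 CPM under overexpression (SD 52.9, n = 2), so the SD of the overexpressing group was as large as its mean. The fitted log2 fold change was -5.77 (standard error 0.825), and -7.66 without overexpressing replicate 3. Without overexpressing replicate 1 it was -4.97, without control replicate 6 it was -5.32 and without control replicate 8 it was -6.11. Of the 13250 genes tested, 11 had a lower fitted log2 fold change than KRT18 and 73 had a lower one than KRT8. Of the 10209 among them that average 5 CPM or more, 1 and 30 did. In bulk RNA, fewer cells with these transcripts and less transcript per cell cannot be told apart.

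The overexpressing libraries were far apart from each other in both genes. KRT18 was 6.42-fold higher in overexpressing replicate 3 than in replicate 1, and of these 10209 genes, 0 differed by a larger fold between these libraries. KRT8 differed by 4.06-fold, and 6 genes differed by more. The median gene differed by 1.11-fold between the same libraries. Between the controls, KRT8 was 1.60-fold and KRT18 1.74-fold higher in replicate 6, against a median difference of 1.17-fold, and 7.78% and 4.99% of these genes differed by more. Overexpressing replicate 3, with the higher keratin counts, had the lower level of IRF1, at 264 CPM against 330 CPM in replicate 1. A link between the levels of IRF1 and of the keratins was not tested, and 2 libraries cannot show one.

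**Figure D1:**
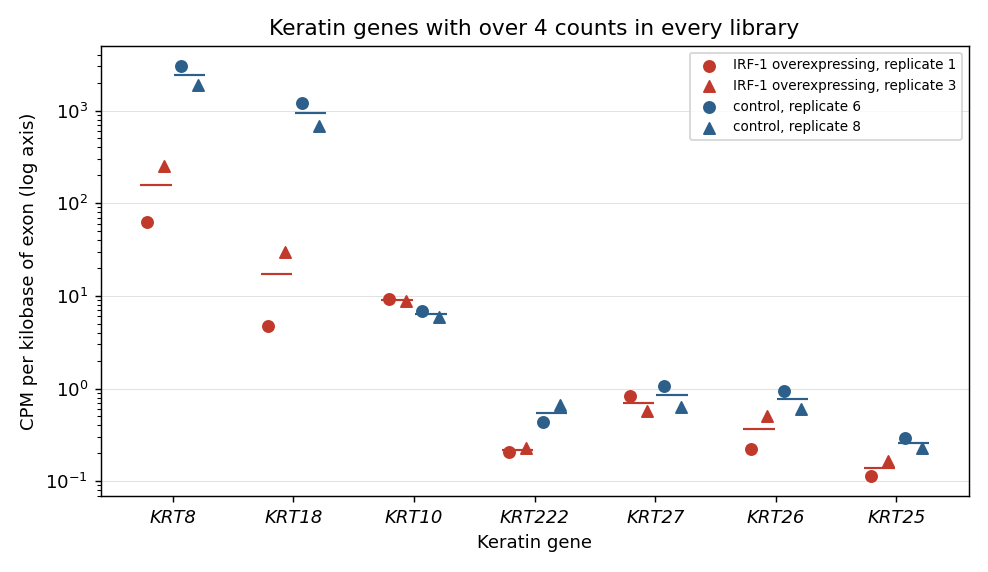
Level of 7 keratin genes in each library, in CPM per kilobase of exon on a log axis, with 1 point per library and a bar at the mean of the 2 libraries of a group (red, IRF-1 overexpressing; blue, control). KRT8 and KRT18 lie far lower in the overexpressing libraries and are spread apart there, whereas KRT10 lies between 5.95 and 9.18 in all 4 libraries.

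The matched members took 1.53% of all counts on genes in control replicate 6 (95% Wilson interval 1.52 to 1.53) and 0.974% in control replicate 8 (0.970 to 0.979). In overexpressing replicate 1 their share was 0.0263% (0.0257 to 0.0269) and in replicate 3 it was 0.110% (0.109 to 0.111). This is 1 read in 65.5 and 1 in 103 in the controls, and 1 in 3802 and 1 in 909 in the overexpressing libraries. The intervals cover counting error only and are far narrower than the differences between libraries of the same group. Their summed level was 18.4-fold higher in the controls than in the overexpressing cells, 47.5-fold without overexpressing replicate 3 and 11.4-fold without overexpressing replicate 1. It was 13.9-fold higher without control replicate 6 and 22.8-fold higher without control replicate 8.

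The KRT8 to KRT18 ratio compares the type II partner with the type I partner, and was taken per kilobase of exon because the genes differ in length. It was 2.49 in control replicate 6 and 2.71 in control replicate 8. In the overexpressing libraries it was 13.3 in replicate 1 and 8.43 in replicate 3. The mean was 10.9 ± 3.47 in the overexpressing cells and 2.60 ± 0.152 in the controls (SD, n = 2 per group), and the groups did not overlap. In raw counts the ratios were 18.1 and 11.4 against 3.39 and 3.68. KRT18 was thus lower by a larger factor than KRT8 in the overexpressing cells, and the ratio was highest in the library with the lowest keratin counts. The identifiers extend past the RefSeq genes, with 1936 of the 4005 bases of KRT8 and 1437 of the 2949 bases of KRT18 inside them. With those lengths, a setting chosen after seeing the data, the ratios were 13.4, 8.50, 2.51 and 2.73.

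**Figure D2:**
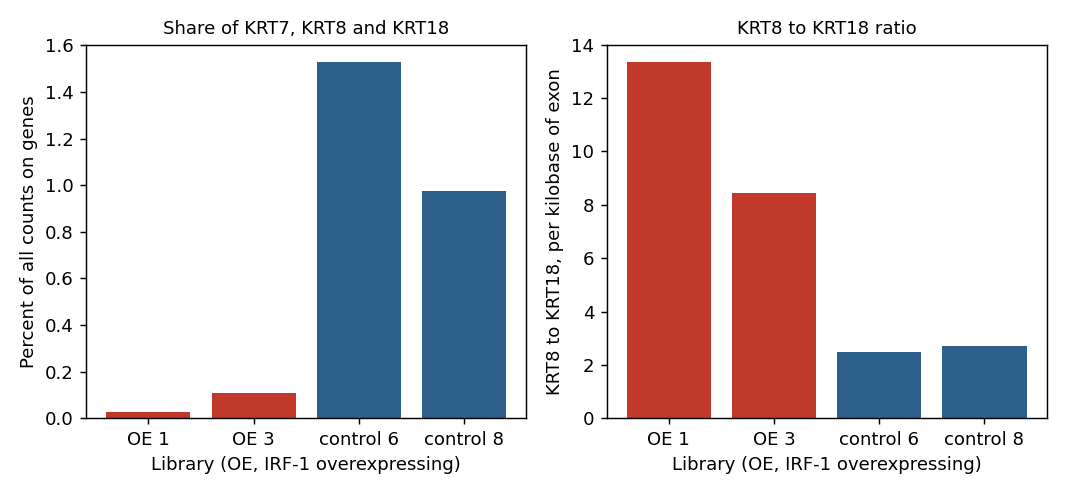
Left, percent of all counts on genes taken by KRT7, KRT8 and KRT18 in each library, and right, KRT8 to KRT18 ratio per kilobase of exon, with 1 bar per library and axes from 0 (red, IRF-1 overexpressing; blue, control). The share is 1.53% and 0.974% in the controls and 0.0263% and 0.110% in the overexpressing libraries, and the ratio is above 8 in both overexpressing libraries and below 3 in both controls.

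KRT7 (ENSSSCG00000038966), the type II keratin of ducts, lies on the plus strand of chromosome 5 from 17553202 to 17571141, with 2922 exon bases. It had 2 counts in control replicate 6 and 0 in each of the other libraries. All were under the floor of 3 counts (0.120 to 0.188 CPM by library totals alone), so KRT7 was not detectable at this depth and no fold change is given. RefSeq lists this locus as a long noncoding RNA in the pig.

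KRT19, a type I keratin that lacks most of the tail domain, was placed through RefSeq, which puts it on chromosome 12 from 21115453 to 21119115 of the same assembly. The identifier over this interval, ENSSSCG00000017448, has no symbol and runs from 21024314 to 21119396. Of its 7684 exon bases, 1412 lie inside the KRT19 interval and the others lie outside it, among them 1558, 513 and 1656 inside 3 unnamed RefSeq protein-coding genes. Its reads cannot be divided among these genes, so they are not given as KRT19 and were kept out of every sum above. The identifier was examined after its values had been seen. It had 200 and 197 counts in control replicates 6 and 8, and 18 and 4 in overexpressing replicates 1 and 3. The groups did not overlap, and here overexpressing replicate 1 was the higher of the pair, the reverse of KRT8 and KRT18. Its fitted log2 fold change was -4.65 (standard error 0.507).

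Outside the members, 32 further keratin genes had a symbol, 16 of type I and 16 of type II. Of these, 17 had 0 counts in every library and 24 had no more than 3 counts in any library. The others were 8 genes, of which 7 lie in the type I cluster on chromosome 12. All of the 4 that were tested are of type I. Across all 13250 genes tested, 1410 (10.6%) were called lower and 1141 (8.61%) higher in the overexpressing cells, a call being an edgeR adjusted p under 0.05 together with a change of 1 or more on the log2 scale. Without overexpressing replicate 1, 787 were called lower and 733 higher. Of the 4 tested keratins, 1 was lower and 0 were higher by edgeR, where 1 had an unadjusted p under 0.05, and DESeq2 called 0. With 2 libraries against 2, an exact two-sided p for 1 gene is 0.333 at the lowest, and the calls depend on edgeR pooling the variability of many genes. The labels do not say that the libraries came from separate cultures, and p-values then measure only the spread between these libraries.

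The gene called was KRT222, a keratin-like gene of type I, with 32 and 30 counts under overexpression and 43 and 72 in the controls. Its log2 fold change was -1.33 with a standard error of 0.408 and an edgeR adjusted p = 0.0433, and it was lower in 2 of 2 overexpressing libraries. The call was lost with DESeq2 (adjusted p = 0.0722) and without overexpressing replicate 1 (0.220), overexpressing replicate 3 (0.137) or control replicate 8 (0.166), and over all settings the adjusted p from edgeR or DESeq2 ranged from 0.0195 to 0.220. KRT10, the type I keratin of the upper epidermis, had 399 and 320 counts against 186 and 182, or 15.7 ± 0.478 CPM against 11.1 ± 1.06 CPM (SD, n = 2 per group). The log2 difference of 0.50, with a standard error of 0.214 and an edgeR adjusted p = 0.124, did not pass the threshold. KRT27 and KRT26, keratins of the hair follicle's inner root sheath, had log2 fold changes of -0.28 and -1.08 with adjusted p = 0.702 and adjusted p = 0.208 in edgeR. KRT25, of the same sheath, had between 5 and 8 counts, KRT24 between 0 and 7, KRT80 between 0 and 6 and KRT28 between 1 and 4, and none of these 4 was tested.

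Summed per kilobase, the named type II keratins stood at 62.4 and 253 CPM in overexpressing replicates 1 and 3 and at 2998 and 1869 CPM in control replicates 6 and 8. KRT8 made up at least 99.99% of this sum in every library. The named type I keratins stood at 15.5 and 40.4 CPM in the overexpressing libraries and at 1212 and 698 CPM in the controls. Over the whole identifier lengths, KRT18 made up 99.2% and 98.8% of the type I sum in the controls, but 30.3% in overexpressing replicate 1 and 74.3% in replicate 3. KRT10 supplied most of the rest, with 59.3% and 21.8% in these libraries. In replicate 1 the level of KRT10 per kilobase (9.18 CPM) was thus above that of KRT18 (4.68 CPM). This order rests on the 2949 exon bases of the KRT18 identifier. With the 1437 of them inside the RefSeq gene, and KRT10 kept at its whole 1749 bases, KRT18 would lie slightly above KRT10 in that library. KRT10 was not cut to its RefSeq gene, so the order of these genes is uncertain. With all named keratins included, type II exceeded type I by 4.04-fold and 6.26-fold under overexpression and by 2.47-fold and 2.68-fold in the controls. These shares and folds were not recomputed with the RefSeq lengths of KRT8 and KRT18. With those shorter lengths for KRT8 and KRT18 alone, the share of KRT18 and the excess of type II would both be larger under overexpression, more clearly in replicate 1 than in replicate 3. These sums leave out the unnamed identifiers. One of them, ENSSSCG00000000248, has 2310 of its 10539 exon bases inside the RefSeq gene KRT5 and 2874 inside KRT6A, so its reads cannot be divided between these keratins of stratified epithelium. It had 1 count in each overexpressing library and 22 and 8 in control replicates 6 and 8, and it was not tested. KRT14 and KRT17 were not analysed here.

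**Figure D3:**
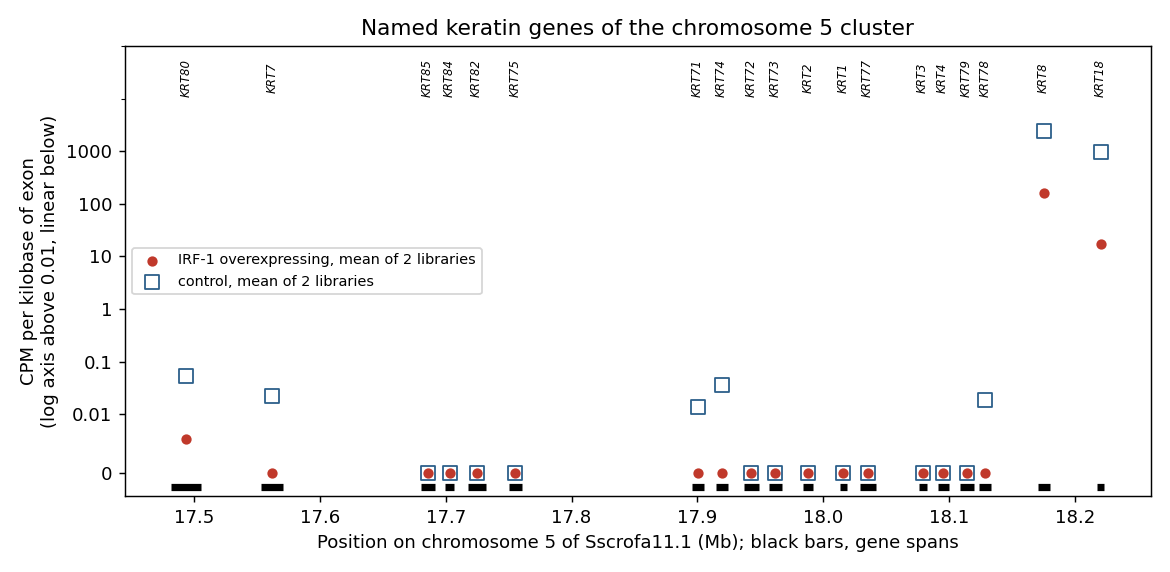
Mean level of the named keratin genes of chromosome 5 against their position, in CPM per kilobase of exon, with a log axis above 0.01 and a linear axis below it (filled red circles, IRF-1 overexpressing; open blue squares, control; 2 libraries each). KRT8 and KRT18, at the right end of the cluster, are the pair with high levels, and each of the other named genes there, KRT7 included, had at most 6 counts in any library.

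Keratin filaments are anchored at cell junctions by desmosomal proteins and plakins, and 14 of the 23 listed genes for such proteins were tested. Of these, 8 were lower and 0 were higher (by edgeR, with 12 lower and 1 higher at an unadjusted p under 0.05, and 8 lower and 0 higher by DESeq2). Over all genes tested, 10.6% were called lower and 8.61% higher, and 21.2% were lower and 19.5% higher at an unadjusted p under 0.05. These shares are the background for each list that follows, and no list was tested against them. Their median log2 fold change was -1.34, against 0.00 over all genes tested, and their summed level was 1223 and 1352 CPM in the overexpressing libraries against 3232 and 2905 CPM in the controls. PPL (periplakin), a plakin of desmosomes and the cornified envelope, stood at 67.8 ± 14.9 CPM in the controls and fell to 6.82 ± 4.42 CPM (SD, n = 2 per group), with a log2 fold change of -3.32, a standard error of 0.417 and an edgeR adjusted p = 0.00135. ITGB4, the hemidesmosomal integrin, fell (log2 fold change -2.40, adjusted p = 0.00313 in edgeR). JUP (plakoglobin), of the desmosomal plaque, fell (log2 fold change -2.26, adjusted p = 0.0012 in edgeR). PLEC (plectin), a cross-linker of filaments and the most abundant gene of the list, fell (log2 fold change -1.75, adjusted p = 0.000788 in edgeR). Exons of ITGB4 share 135 bases with GALK1 and those of PLEC share 52 bases with an unnamed identifier, which leaves reads there uncertain.

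Intermediate filament genes other than keratins moved in both directions. Of 12 tested (16 listed), 6 were lower and 1 was higher. Their median was -0.82, with a summed level of 1696 and 1587 CPM in the overexpressing libraries and 1748 and 1756 CPM in the controls. The number of lower genes was 3 without overexpressing replicate 1. VIM (vimentin), the filament of mesenchymal cells and the most abundant gene, stood at 945 ± 127 CPM under overexpression and 1088 ± 22.6 CPM in the controls (SD, n = 2 per group), with a log2 fold change of -0.20 and an edgeR adjusted p = 0.31. Per kilobase, VIM (158 and 131 CPM) was above KRT8 in overexpressing replicate 1 (62.4 CPM) and below it in replicate 3 (253 CPM), whereas KRT8 was 17.7-fold and 11.4-fold above VIM in control replicates 6 and 8. NES (nestin), of neural progenitors, fell (log2 fold change -2.06, adjusted p = 0.00137 in edgeR) and so did the nuclear lamin gene LMNA (-1.43, adjusted p = 0.00111 in edgeR). INA, the neuronal alpha-internexin, rose from 6 and 22 counts to 524 and 171 (log2 fold change 4.13, adjusted p = 0.00293 in edgeR).

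Markers of simple epithelium moved in both directions. Of 17 tested (32 listed), 4 were lower and 4 were higher, with a median of -0.65 on the log2 scale, and the number of lower genes was 2 without overexpressing replicate 1. The claudin gene CLDN6, of tight junctions, fell (log2 fold change -2.83, adjusted p = 0.00167 in edgeR), as did CDH1 (-2.25, adjusted p = 0.00676), the E-cadherin gene and the most abundant, and the membrane protease gene ST14 (-1.60, adjusted p = 0.0162). As with KRT8, CDH1 was higher in overexpressing replicate 3 (73.9 CPM) than in replicate 1 (25.4 CPM), against 240 and 232 CPM in the controls. The transcription factor gene GRHL1 and the membrane trafficking gene MAL2 rose by log2 fold changes of 1.28 and 1.24 (adjusted p = 0.0176 and adjusted p = 0.0175 in edgeR). CLDN4 was also called lower, and ESRP1 and ANKRD22 were also called higher, but 720 of the 1749 exon bases of CLDN4 are shared with METTL27 and 348 of the 2252 of ANKRD22 with LIPM. EPCAM, an epithelial adhesion gene, stood at 8.47 ± 0.721 CPM under overexpression and 7.30 ± 0.101 CPM in the controls (SD, n = 2 per group), with an edgeR adjusted p = 0.574. The summed level of the list was 154 and 233 CPM in the overexpressing libraries and 598 and 525 CPM in the controls.

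The trophectoderm, the outer layer of the blastocyst, is where KRT8 and KRT18 are first abundant. Of 14 tested genes on the list for it (26 listed), 7 were lower and 3 higher, with a median of -0.96 and a summed level of 250 and 325 CPM in the overexpressing libraries against 729 and 583 CPM in the controls. TFAP2C fell (log2 fold change -2.82, adjusted p = 0.000551 in edgeR), as did TEAD4 (-2.68, adjusted p = 0.000735) and ID2 (-2.66, adjusted p = 0.000703), all encoding transcription regulators. TFAP2A, a relative of TFAP2C, rose from 45 and 47 counts to 769 and 890 (log2 fold change 3.72, adjusted p = 0.000206 in edgeR). FGFR2, a receptor for fibroblast growth factors and the most abundant gene, fell (log2 fold change -1.41, adjusted p = 0.00345 in edgeR). DAB2 (-3.09, adjusted p = 0.00294 in edgeR), KLF5 and ETS2 were also called lower, and TFAP2B and TBX3 were also called higher. KLF5 had few counts, 8 and 12 under overexpression and 20 and 37 in the controls. By qRT-PCR, the study reported KLF5 as upregulated in the overexpressing cells, the opposite direction. It also reported KLF17 and PRDM14, which had no counts here, as upregulated by qRT-PCR. From the RNA-seq of these same libraries, the study reported KRT8, DAB2 and TFAP2C as downregulated and TBX3 as upregulated, the directions found here. Of the 7817 exon bases of DAB2, 1682 are shared with C9, and of the 4980 of TFAP2B, 246 are shared with an unnamed identifier. CDX2, HAND1 and PLET1 had 0 counts in every library.

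Among transcription factors known to act on simple epithelial keratin genes, 20 of 32 listed were tested, of which 4 were lower and 3 higher (10.6% and 8.61% over all genes tested), with a median of -0.37. The number of lower genes moved with the library, to 1 without overexpressing replicate 1, 2 without overexpressing replicate 3 and 7 without control replicate 8, and it was 7 with no filter on low counts. TFAP2C, TFAP2A and GRHL1, given above, are on this list too, GRHL3 and KLF5 were also called lower and TFAP2B higher, and ETS2 fell (log2 fold change -1.09, adjusted p = 0.0146 in edgeR). FOS and JUN had log2 fold changes of -2.17 and -0.88 with standard errors of 1.47 and 1.02 (adjusted p = 0.311 and adjusted p = 0.558 in edgeR). SP3, the most abundant, had a log2 fold change of -0.35 (adjusted p = 0.101 in edgeR). The summed level was 509 and 525 CPM in the overexpressing libraries and 1074 and 473 CPM in the controls, so the controls lay on either side. JUNB was at 0 in every library, but all 1044 of its exon bases are shared with PRDX2 or HOOK2, so its level cannot be read from these counts.

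Other cell types that could carry or lack these keratins were read through their markers. For stratified epithelium, 2 of 4 tested genes (21 listed) were lower and 0 higher (by edgeR, with 2 lower and 0 higher at an unadjusted p under 0.05 and the same numbers by DESeq2, against 10.6% and 8.61% called and 21.2% and 19.5% at such a p over all genes tested), with a median of -1.19. PERP, a desmosomal membrane gene, fell (log2 fold change -2.11, adjusted p = 0.000547 in edgeR). ITGB4 was the most abundant, KRT1, KRT4, KRT15 and IVL were at 0 in every library, and TP63 had at most 2 counts. The summed level was 54.8 and 76.8 CPM in the overexpressing libraries and 298 and 218 CPM in the controls. For mesothelium, a keratin-bearing lining of body cavities, 1 of 5 tested genes (12 listed) was lower and 4 were higher, with a median of 2.37, and also 2.37 with WT1 and CALB2 set at the floor in the controls. The lower gene was UPK1B, a uroplakin, with 25 and 40 counts under overexpression and 138 and 142 in the controls (log2 fold change -2.54, adjusted p = 0.0032 in edgeR). WT1 had 111 and 119 counts under overexpression and 3 and 1 in the controls, and CALB2 had 99 and 80 against 3 and 1. The most abundant gene, PKHD1L1, rose by a log2 fold change of 2.37 (adjusted p = 0.00105 in edgeR) and GPM6A by 1.60 (adjusted p = 0.00143). The summed level was 224 and 161 CPM against 45.1 and 59.4 CPM, and MSLN, UPK3B and LRRN4 were not analysed here. WT1 shares 109 exon bases with an unnamed identifier and GPM6A shares 31 with another.

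Fibroblast markers bear on the feeder cells and the cells of origin. Of 20 tested (30 listed), 11 were lower and 3 higher, with a median of -1.54, also with DCN and MFAP5 set at the floor. PDGFRB, a growth factor receptor, fell (log2 fold change -5.49, adjusted p = 0.000595 in edgeR). It had 1966 and 978 counts in control replicates 6 and 8 and 28 and 62 in overexpressing replicates 1 and 3. The smooth muscle actin gene ACTA2 fell (log2 fold change -4.47, adjusted p = 0.00102 in edgeR) and so did the matrix gene FBLN2 (-2.55, adjusted p = 0.000559). PRRX1, COL5A2 and COL1A2, a mesenchymal transcription factor and 2 collagen chains, rose by log2 fold changes of 1.62, 1.08 and 1.08 (adjusted p = 0.00269, adjusted p = 0.0147 and adjusted p = 0.0301 in edgeR). The summed level was 2169 and 2016 CPM in the overexpressing libraries and 3553 and 3082 CPM in the controls, with VIM the most abundant. LUM had at most 3 counts, COL3A1 at most 9 and DCN at most 19 in any library. The part of fibroblasts in the keratin levels was not tested.

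For endoderm, 2 of 7 tested genes (20 listed) were lower and 1 was higher (10.6% and 8.61% over all genes tested), with a median of 0.01 and a summed level of 92.8 and 113 CPM in the overexpressing libraries and 147 and 139 CPM in the controls. APOA1, an apolipoprotein gene, fell (log2 fold change -2.55, adjusted p = 0.00352 in edgeR) and so did the chemokine receptor gene CXCR4 (-1.42, adjusted p = 0.00114). The higher gene was HHEX, with a log2 fold change of 2.59 (adjusted p = 0.00544 in edgeR). GATA6, the most abundant, had a log2 fold change of 0.12 (adjusted p = 0.715 in edgeR), and FOXA2, AFP, TTR, CER1 and TF were at 0. For pluripotent cells, 2 of 6 tested genes (22 listed) were lower and 0 higher (by edgeR, with 3 lower and 1 higher at an unadjusted p under 0.05, and 2 lower and 1 higher by DESeq2, against 10.6% and 8.61% called and 21.2% and 19.5% at such a p over all genes tested), with a median of -0.10. ESRRB fell (log2 fold change -4.19, adjusted p = 0.000246 in edgeR) and so did LIN28A (-1.34, adjusted p = 0.00146). NODAL, with a log2 fold change of 1.07 (adjusted p = 0.0540 in edgeR), did not pass the threshold. DNMT3B was the most abundant, and the summed level was 1321 and 1306 CPM in the overexpressing libraries and 1337 and 1510 CPM in the controls.

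The genes whose pattern over the 4 libraries was most like that of the summed members were found by the Euclidean distance between centred log2 CPM profiles, over 9127 candidates that have a symbol and average 5 CPM or more. The nearest were PTH1R (distance 0.234), a parathyroid hormone receptor gene, C8orf58 (0.338), PMP22 (0.428), a tetraspan membrane protein gene, IGFBP6 (0.518), which encodes a binding protein of insulin-like growth factors, and LYN (0.555), a Src family kinase gene. KRT8 itself lay at 0.263 and KRT18 at 1.82 from the profile of the sum, which KRT8 dominates. KRT18 thus lay farther from that profile than all 5 of these genes, and the likeness is to KRT8 more than to KRT18. PTH1R had 720 and 446 counts in control replicates 6 and 8 and 19 and 77 in overexpressing replicates 1 and 3, and PMP22 had 4743 and 2775 against 162 and 411. All 5 had the library order of KRT8, highest in control replicate 6 and lowest in overexpressing replicate 1, which follows from how they were picked. PTH1R, C8orf58, IGFBP6 and LYN averaged 2.23, 1.39, 4.87 and 0.661 CPM under overexpression, so they met the 5 CPM minimum through the controls. In overexpressing replicates 1 and 3, LYN had only 9 and 20 counts and C8orf58 14 and 46. IGFBP6 lies on chromosome 5 as well, 130338 bases beyond the end of KRT18. Since the genes were picked for this likeness, no test is given.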

How the data were processed

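The values deposited by the authors are raw counts of reads assigned to each gene in the 4 RNA-seq libraries, not normalized, with each gene's exon length beside them. Per the study's methods, reads were trimmed with trim_galore, mapped to assembly Sscrofa11.1 with HISAT2 and counted with featureCounts (1.6.4 in the submitters' processing notes). The methods also name htseq-count. The strand setting and the treatment of reads mapping to several places were not given in the sources used here. The 4 ChIP-seq and input libraries were not analysed here.

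Libraries were grouped by the numbers in their titles, with 1 and 3 taken as overexpressing and 6 and 8 as control from the study's figure legend and the comparison set for this work. The sample labels alone do not give this division. Of 24358 identifiers, 14692 had a symbol. The members and gene lists were chosen with earlier results of these data known.

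Counts were tested with edgeR 4.0.16 in R 4.3.3 (TMM, filterByExpr by group, quasi-likelihood fit, Benjamini-Hochberg adjustment over 13250 genes), and the common dispersion was 0.0313. Standard errors are the size of the log2 fold change over the square root of F. The statistics were tested on simulated data. The floor was set at 3 counts per library, which covers counting error only. Replicates were not copies of 1 library, since chi-square over its degrees of freedom was 19.0 between overexpressing and 33.3 between control libraries. Named genes were IRF1, the members, keratins that were tested or had over 3 counts in a library, and the 5 genes most like the sum of the members. From each list they were the 3 lowest and 3 highest called genes averaging 5 CPM or more, and the most abundant gene. Genes named outside this rule were chosen after their values were seen. Alternatives were DESeq2 1.42.0, other scalings, no filter, each library left out, no fold change minimum and other lengths for the ratio. Protein and promoter comparisons of the members were planned and are not reported here. Python 3.11.15 with pandas 2.3.3 and matplotlib 3.10.9 was used for tables and figures.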

Additional observations from a re-analysis of the deposited data

How the results depend on the processing

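Of the values recomputed under other settings, 138 stayed within the spread between libraries or within 1.5 times the main count, and 18 did not. The cause was not tested in any of these. None of the log2 fold changes of KRT8 and KRT18 changed sign under another scaling, filter or test, or with a library left out. With each library left out in turn, the log2 fold change of KRT8 ranged from -5.29 to -3.26 and that of KRT18 from -7.66 to -4.97, in each case from the fit without overexpressing replicate 3 to the fit without overexpressing replicate 1. The summed level of the members was between 11.4-fold and 47.5-fold higher in the controls. The KRT8 to KRT18 ratio in raw counts averaged 14.8 in the overexpressing cells and 3.53 in the controls.

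The number of genes called lower ranged from 787 to 1500 and that of genes called higher from 733 to 1124 with a library left out, the lowest of each without overexpressing replicate 1. With no minimum on the fold change, 2054 genes were called lower and 1842 higher. Among keratins outside the members, between 0 and 1 gene was called lower with a library left out and 0 with DESeq2. The number of lower genes ranged from 3 to 6 for other intermediate filament genes, from 2 to 6 for simple epithelium and from 1 to 7 for keratin gene regulators, and the last was 7 with no filter on low counts. In these fits the lone library of a group is assumed to vary like the other group. No paired analysis was possible because the overexpressing and control libraries share no replicate number. Depth limits what can be said of KRT7 and of the keratins with few counts, for which only changes above the floor of 3 counts could be seen.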
